A study of Mus musculus with 24 samples.

Results

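Glycolysis and the pentose phosphate pathway were followed through 33 named genes: the transporters that carry glucose and lactate, the enzymes from hexokinase to lactate dehydrogenase, the PFKFB enzymes that set the pace of phosphofructokinase, the enzymes of both branches of the pentose phosphate pathway, and the regulator Hif1a. The members were named from the pathway, with earlier results of these data known, and 28 of the 33 had a value among the 23930 amplicons measured. Gapdh, Pgk1, Pgam1, Eno1, and Pfkfb2 are not analysed here. All 28 passed the filter on low values in both monocyte subsets.

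Glycolysis splits glucose into pyruvate and yields ATP without oxygen, and activated or dividing immune cells commonly draw on it. The oxidative branch of the pentose phosphate pathway makes NADPH, which phagocytes spend on the oxidative burst and on lipid synthesis. The non-oxidative branch exchanges sugar phosphates between glycolysis and ribose phosphate, the sugar of nucleotides.

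RNA was sequenced from splenic monocytes of C57BL/6 mice of 3 genotypes: purchased WT mice, Slc29a3-/- mice, which carry a CRISPR insertion with a stop codon in Slc29a3 (the gene of a lysosomal nucleoside transporter), and Slc29a3-/- Tlr7-/- mice, which carry that insertion and a CRISPR mutation in Tlr7 (the gene of an endosomal receptor for RNA and guanosine). The mice were untreated, and the sources used here give neither the age of the mice for these libraries nor whether replicates came from separate animals. From each genotype, CD11b+ NK1.1- Ly6G- SiglecF- cells were sorted as Ly6C high, Fcgr4 low (Ly6Chi) or Ly6C low, Fcgr4 high (Ly6Clow) cells, which the labels call macrophages and the study calls monocytes. Each of the 6 groups had 4 libraries, so P-values measure the spread between these libraries, which may in part be technical. Neither genotype is limited to monocytes, and the 2 mutant genotypes share the Slc29a3 mutation, so of the named alleles only Tlr7 differs between these 2.

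Each library was made with a kit that amplifies 1 short stretch per gene, and its reads were scaled to the same total in every library (RPM), so values can be compared between libraries but not between genes. The even step between the lowest values corresponds to 12311031 to 14572210 reads per library. The amplicons of the targeted genes were read in every group (Slc29a3 at 163 to 225 RPM in WT, 127 to 173 in Slc29a3-/-, and 194 to 413 in Slc29a3-/- Tlr7-/- Ly6Chi libraries, Tlr7 at 209.8 to 336, 111 to 227, and 259 to 345 RPM), and whether the mutations touch the amplified stretches is not given in the sources used here, so they do not check the labels. The sort could be checked: the summed level of the 4 measured Ly6Chi markers was 2588 to 6768 RPM in Ly6Chi and 90.6 to 269 RPM in Ly6Clow WT libraries, that of the 7 Ly6Clow markers 1057 to 2447 and 6177 to 9960.0 RPM, and Ly6c2 itself was not analysed here. WT replicate 4 stood apart from WT replicates 1 to 3 in both subsets (Euclidean distance over all genes tested of at least 63.7 against at most 24.3 log2 units in Ly6Chi and 67.4 against 44.4 in Ly6Clow libraries). Its depth was 12820513 reads in Ly6Chi and 13048385 in Ly6Clow cells. WT replicates 1 to 3 had 14237263 to 14572210 reads and the mutant libraries 12311031 to 12983825. Only the Ly6Chi library of replicate 4 lay in the mutant range. Alone among the WT libraries, replicate 4 had barcode numbers among those of the mutants. It was also the only WT library with Y-linked reads and no Xist in either subset. WT replicates 1 to 3 held Xist with few or no Y-linked reads. Sex, depth, and barcode cannot be told apart in replicate 4. For these reasons, comparisons with WT were repeated with replicate 4 standing alone for WT, where the lone WT library of a subset is assumed to vary like the other groups. Of the Slc29a3-/- Tlr7-/- libraries, Ly6Chi replicates 2 and 3 and Ly6Clow replicate 2 held both Xist and Y-linked reads, which 1 mouse does not make, and results with this genotype are also given without these 3 libraries.

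In Ly6Chi monocytes, many members, though not all, stood higher in Slc29a3-/- than in WT mice. A call required more than a 1.5-fold difference with P under 0.05, the thresholds of the study, on log2(RPM + 1), a scale that understates the changes of weakly read genes. Calls refer to the RPM as deposited and to all 4 libraries of a group where no alternative is named. By this rule 10 of the 28 members rose in Slc29a3-/- Ly6Chi monocytes, where 9.38% of all 10561 genes tested did: Slc2a3, Slc16a3, Hk3, Tpi1, Pfkfb3, Pfkfb4, Pgd, Rpia, Rpe, and Tkt. Only Pfkm fell, against 17.3% of all genes. All 11 passed with Benjamini-Hochberg adjusted P-values under 0.05 as well, against backgrounds of 8.15% and 14.3%. The median log2 fold change was 0.44 for the members and -0.14 for all genes. The 28 members together summed to 7148 ± 326 RPM in WT, 10129 ± 669.7 in Slc29a3-/-, and 7878 ± 544 in Slc29a3-/- Tlr7-/- Ly6Chi libraries (SD, n = 4 each). The WT and Slc29a3-/- sums did not overlap. Strongly read members weigh most in this sum, so it is no even measure of the members. Pkm, which was not called, averaged 2089 RPM in WT and 2834 in Slc29a3-/- Ly6Chi libraries, and Tkt 1131 and 1897. In 13 members every Slc29a3-/- library lay above every WT library (11.9% of all genes), and in 2 every one lay below (21.8%). Scaling by TMM moved the median of all genes from -0.14 to 0.03 and the split of all calls from 991 higher and 1826 lower to 1465 and 1282, and gave 15 members higher and 1 lower. The members gained with TMM were Gpi1 (0.70), Hk1 (0.62), Ldhb (0.67), Pkm (0.62), and Taldo1 (0.62). When WT replicate 4 stood alone, the unadjusted rule still called Slc2a3 (1.35), Hk3 (1.12), Tpi1 (0.65), Pfkfb4 (0.59), Pgd (0.65), Rpia (1.20), and Tkt (0.95). It did not call Slc16a3 (0.63), Pfkfb3 (0.48), Rpe (0.40), or Pfkm (-0.87), and Slc16a1 was called in addition. These calls did not use the adjusted P, and with 1 WT library their P-values take the spread from the other groups.

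Compared with Slc29a3-/- Tlr7-/- Ly6Chi monocytes, 5 members were higher in Slc29a3-/- cells (Slc2a3, Hk3, Gpi1, Rpia, and Tkt), and none was lower, also at an adjusted P under 0.05. The backgrounds were 10.5% and 11.9% of all genes (9% and 8.22% with the adjusted P), beside 17.9% of the members called higher. At an unadjusted P under 0.05 alone, Pfkm and Slc2a1 lay lower (log2 fold changes of -0.56 and -0.51), without reaching 1.5-fold. The member median was 0.26, beside -0.12 for all genes. In 8 members every Slc29a3-/- library lay above every Slc29a3-/- Tlr7-/- library (9.81% of all genes) and in none below (11.5%). The count of calls depended on the scaling, as did that of all genes: with TMM factors 12 members (13.5% of all genes) and with RLE factors 10 (12.7%) were higher, and none was lower (7.59% and 8.46%). The members gained with TMM were Aldoa (0.60), Rpe (0.74), G6pdx (0.94), Pfkfb4 (0.63), Slc16a1 (0.69), Slc16a3 (0.67), and Tpi1 (0.71). Without the libraries that held Xist and Y-linked reads, 4 were higher (9.10% of all genes), and Tkt was no longer called (0.56 instead of 0.67). Between Slc29a3-/- Tlr7-/- and WT Ly6Chi monocytes, 1 member was higher (Pfkfb3) and 1 lower (Slc2a3), against backgrounds of 3.12% and 9.44%, neither with an adjusted P under 0.05 (backgrounds 0.312% and 1.11%), and the member median was 0.06. Both Ly6Chi comparisons of Slc29a3-/- cells use the same 4 Slc29a3-/- libraries.

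**Figure D1:**
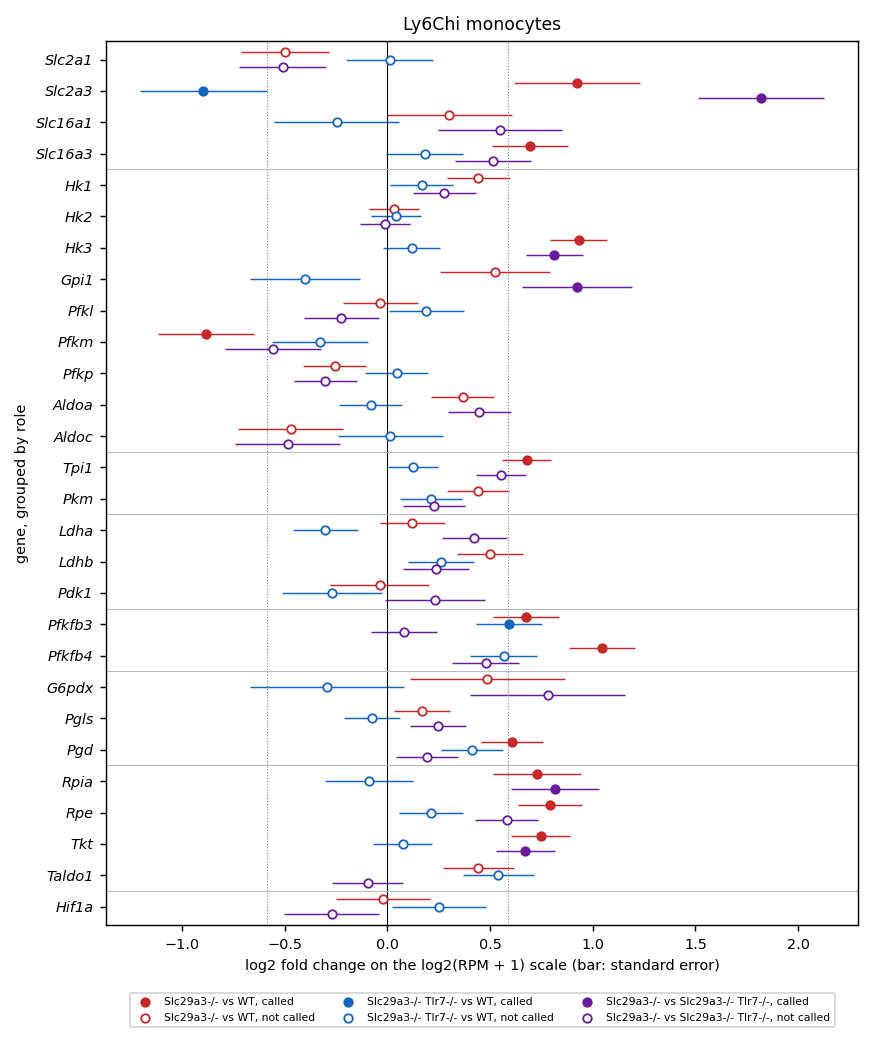
Log2 fold changes (x axis, log2(RPM + 1) scale, bars are standard errors) of the 28 members (y axis, grouped by role) in 3 comparisons of Ly6Chi monocytes, with filled points for calls and dotted lines at 1.5-fold. The 10 members called higher in Slc29a3-/- than in WT cells lie between 0.60 and 1.05, and Pfkm lies at -0.88.

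In Ly6Clow monocytes, few members passed the thresholds. Pdk1, Pfkfb3, and Slc16a3 were higher and Pfkm and Slc2a3 lower in Slc29a3-/- than in WT cells, 3 and 2 of 28 against 6.15% and 7.05% of all 10317 genes. Of these, Pfkfb3 and Slc2a3 had an adjusted P under 0.05 (backgrounds 1.9% and 2.53%). Pfkfb3 and Taldo1 were higher and Gpi1 lower in Slc29a3-/- Tlr7-/- than in WT cells (backgrounds 6.08% and 14.6%), of which Pfkfb3 had an adjusted P under 0.05 (backgrounds 2.28% and 6.03%). G6pdx, Gpi1, and Pdk1 were higher and Slc2a3 lower in Slc29a3-/- than in Slc29a3-/- Tlr7-/- cells (backgrounds 10.8% and 2.92%), of which Slc2a3 had an adjusted P under 0.05 (backgrounds 1.22% and 0.708%). The medians of the members in the last 2 of these comparisons were -0.03 and 0.07, beside -0.10 and 0.08 for all genes. With WT replicate 4 alone, Pfkfb3 was higher and Slc2a3 and Pfkfb4 lower in Slc29a3-/- cells (1.30, -0.98, and -0.80, beside 199 higher and 504 lower of all 10087 genes). Without Slc29a3-/- Tlr7-/- replicate 2, which held Xist and Y-linked reads, 5 members were lower in this genotype than in WT cells (Gpi1, G6pdx, Pfkm, Pfkp, and Ldha, beside 18.5% of all genes), and 5 were higher (Gpi1, G6pdx, Pdk1, Ldha, and Slc16a1) and 2 lower (Slc2a3 and Ldhb) in Slc29a3-/- cells by comparison (beside 16.2% and 4.08%). Summed over the members, the Ly6Clow libraries held 5770.4 ± 118 RPM in WT, 5933 ± 208 in Slc29a3-/-, and 6152 ± 449 in Slc29a3-/- Tlr7-/- mice (SD, n = 4 each), which overlapped. Genes of other cell types and programs differed in this subset too. Of 5 tested erythroid genes, 3 were higher in Slc29a3-/- than in WT cells, and 5 than in Slc29a3-/- Tlr7-/- cells. The erythroid sum was 29.1 to 44.5 RPM in WT, 92.2 to 118 in Slc29a3-/-, and 12.8 to 39.3 in Slc29a3-/- Tlr7-/- libraries. In both mutant genotypes 8 of 9 tested neutrophil genes were lower than in WT cells, as were 7 (Slc29a3-/-) and 8 (Slc29a3-/- Tlr7-/-) of 12 immediate early and heat shock genes. The sum of the latter was 1182 to 11265 RPM in WT, 1214 to 1549 in Slc29a3-/-, and 917 to 5878 in Slc29a3-/- Tlr7-/- libraries. The part of these genes in the members' differences was not tested.

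**Figure D2:**
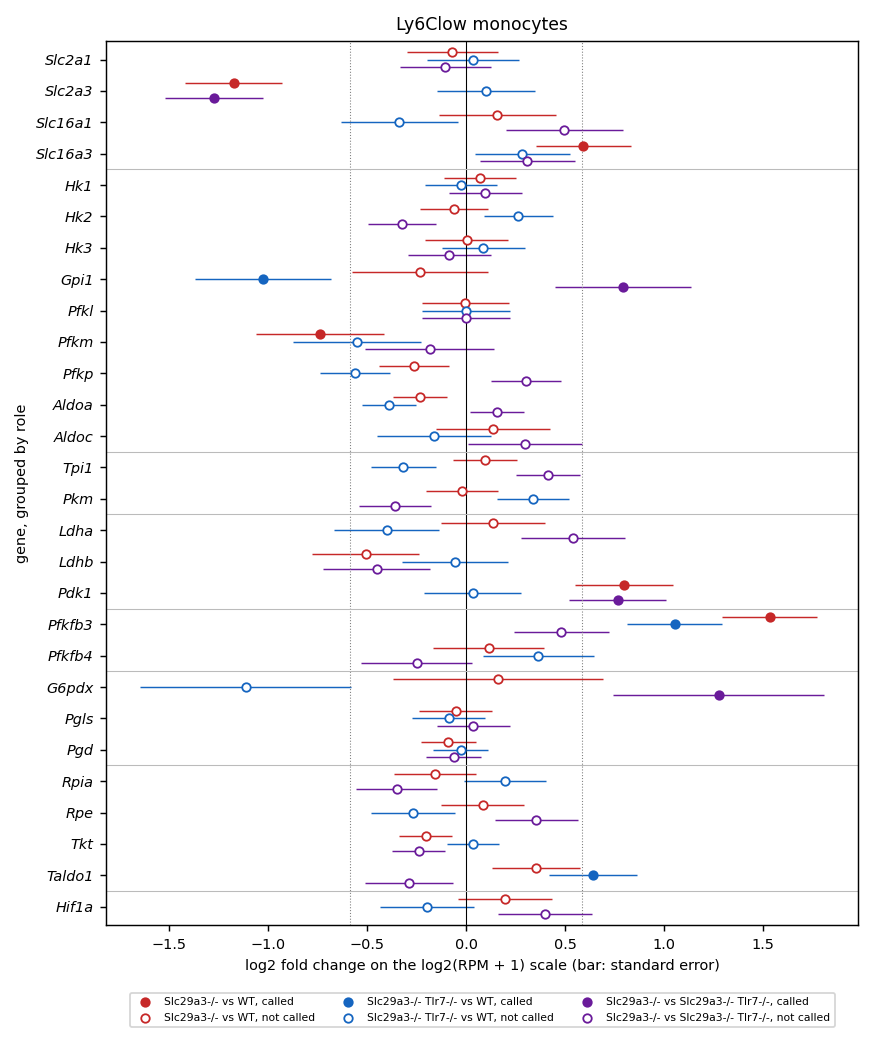
The same 3 comparisons in Ly6Clow monocytes, with log2 fold changes and standard errors on the x axis and the 28 members by role on the y axis. Pfkfb3 is called higher against WT in both mutant genotypes (1.53 and 1.05), and Slc2a3 is called lower in Slc29a3-/- cells in both of its comparisons.

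Of the transporters, Slc2a3 (GLUT3, a high-affinity glucose importer of leukocytes) changed in opposite directions in the subsets. Slc2a3 was read at 82.1, 92.4, 83.2, and 57.6 RPM in WT replicates 1 to 4, 135, 121, 137, and 214 in Slc29a3-/-, and 70.1, 24.04, 27.2, and 62.7 in Slc29a3-/- Tlr7-/- Ly6Chi libraries. In Ly6Clow cells Slc2a3 was read at 21.9, 23.4, 23.8, and 19.1 RPM in WT, 6.92, 11.7, 8.83, and 9.85 in Slc29a3-/-, and 14.9, 20.3, 35.4, and 28.7 in Slc29a3-/- Tlr7-/- libraries. Every Slc29a3-/- library lay above the others in Ly6Chi cells and below the others in Ly6Clow cells. The log2 fold change of Slc2a3 in Ly6Chi cells was 0.92 (SE 0.31, adjusted P = 0.037) against WT and 1.82 (SE 0.31, adjusted P = 0.001) against Slc29a3-/- Tlr7-/-. In Ly6Clow cells it was -1.17 (SE 0.25, adjusted P = 0.015) and -1.27 (SE 0.25, adjusted P = 0.013). The difference between the subsets passed the test of the interaction against both WT (2.10, adjusted P = 0.002) and Slc29a3-/- Tlr7-/- (3.09, adjusted P = 0.00028), and those interactions were called under all alternatives tried. The fall of Slc2a3 in Slc29a3-/- Tlr7-/- against WT Ly6Chi cells (-0.90, adjusted P = 0.11) rested on replicates 2 and 3, which held Xist and Y-linked reads: without them it was -0.22 (adjusted P = 0.67), and the difference of Slc29a3-/- from this genotype was 1.15 (adjusted P = 0.0075). Slc29a3-/- replicate 4, the highest Ly6Chi library, and WT replicate 4, the lowest WT library, also weighed on the difference from WT: fitted without both, the difference was 0.61, which was not called (limma, adjusted P = 0.21).

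Slc2a1 (GLUT1, the basal glucose importer) was not called in any genotype comparison. Slc2a1 was read at 27.7, 28.03, 28.9, and 23.7 RPM in WT, 19.9, 20.4, 23.5, and 13.1 in Slc29a3-/-, and 23.2, 34.8, 34.5, and 19.7 in Slc29a3-/- Tlr7-/- Ly6Chi libraries. The corresponding Ly6Clow values of Slc2a1 were 28.7, 31.8, 31.6, and 31.8 RPM in WT, 28.6, 34.8, 22.3, and 33.8 in Slc29a3-/-, and 18.4, 38.9, 34.9, and 40.4 in Slc29a3-/- Tlr7-/- libraries. All Ly6Chi Slc29a3-/- libraries lay below all WT libraries, but the difference had an adjusted P of 0.095. Its log2 fold change there was -0.50, the opposite sign to that of Slc2a3. Slc16a3 (MCT4, which exports lactate) averaged 80.00 ± 5.14 RPM in WT, 131 ± 22.3 in Slc29a3-/-, and 93.4 ± 24.6 in Slc29a3-/- Tlr7-/- Ly6Chi cells (SD, n = 4 each), and rose by 0.69 (SE 0.19, adjusted P = 0.013) on the log2 scale against WT. Against WT replicate 4 alone the size was similar (0.63) but the call was lost (adjusted P = 0.37). Slc16a1 (MCT1, the other lactate transporter) was read at 6.08 to 15.3 RPM in WT and 11.6 to 18.9 RPM in Slc29a3-/- Ly6Chi libraries, which overlapped, and it was not called in any genotype comparison. WT replicate 4 was the lowest of those WT libraries, and against it alone Slc16a1 was called (1.15, adjusted P = 0.23). In Ly6Clow cells Slc16a3 was read at 129 to 236 RPM in WT and 229 to 337 RPM in Slc29a3-/- libraries, and its difference of 0.59 (SE 0.24, adjusted P = 0.18) was lost without any 1 of WT replicates 1 and 2 and Slc29a3-/- replicates 2 and 3 (0.44 without WT replicate 2), with RLE scaling (0.57), and against WT replicate 4 alone (0.17).

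**Figure D3:**
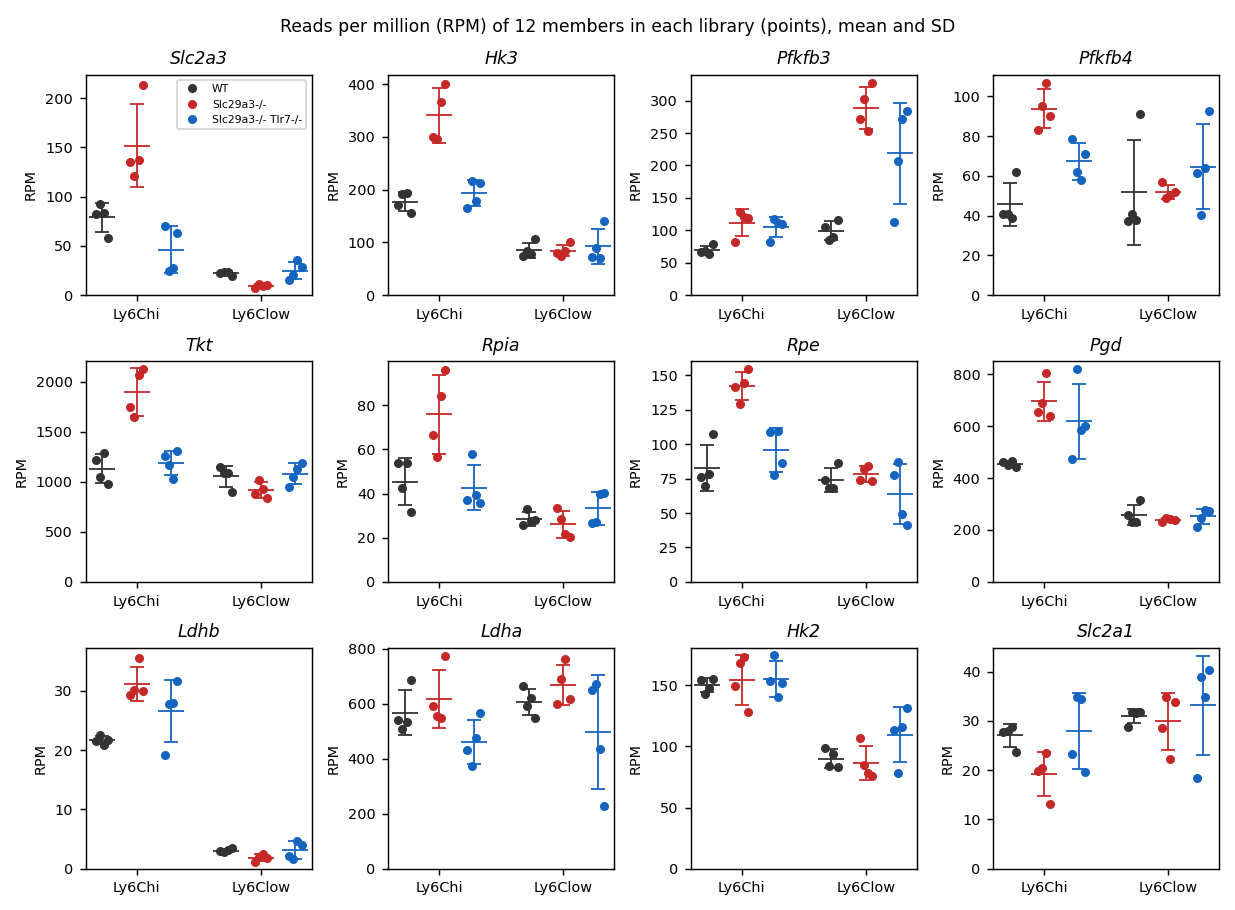
RPM (y axis, from 0) of 12 members in each library (points) of Ly6Chi and Ly6Clow monocytes (x axis) of the 3 genotypes, with the mean and SD of the 4 libraries. Slc2a3 is highest in Slc29a3-/- Ly6Chi and lowest in Slc29a3-/- Ly6Clow libraries, Hk3, Tkt, and Rpe separate Slc29a3-/- from the other Ly6Chi libraries, and Hk2 does not.

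Among the hexokinases, which trap glucose in the cell as its phosphate, Hk3 was the only one called between genotypes. Hk3 was read at 169.9, 191, 193, and 155 RPM in WT, 300.3, 295, 366, and 401 in Slc29a3-/-, and 166, 217, 178, and 212 in Slc29a3-/- Tlr7-/- Ly6Chi libraries. The 4 Slc29a3-/- libraries lay above all 8 others. The Ly6Clow values of Hk3 were 73.5, 82.6, 77.1, and 105 RPM in WT, 80.2, 73.8, 83.4, and 100.3 in Slc29a3-/-, and 71.4, 88.6, 70.5, and 141 in Slc29a3-/- Tlr7-/- libraries, with the genotypes overlapping. Hk3 rose in Ly6Chi cells by 0.93 (SE 0.14, adjusted P = 0.00051) on the log2 scale against WT and by 0.81 (SE 0.14, adjusted P = 0.0011) against Slc29a3-/- Tlr7-/-, was called under all alternatives of both, and had a log2 fold change of 1.12 against WT replicate 4 alone. Hk2, the inducible isoform often tied to proliferation, was read at 154, 143, 147, and 155 RPM in WT, 149, 168, 173, and 128 in Slc29a3-/-, and 154, 174, 139.9, and 152 in Slc29a3-/- Tlr7-/- Ly6Chi libraries. Its Ly6Clow values were 98.5, 83.7, 93.7, and 82.8 RPM in WT, 106, 85.04, 78.4, and 76.03 in Slc29a3-/-, and 113, 77.9, 116, and 131 in Slc29a3-/- Tlr7-/- libraries. The 3 genotypes overlapped in both subsets, and the Ly6Chi log2 fold change of Hk2 was 0.03 (SE 0.12, adjusted P = 0.87) against WT. Hk1, the widely expressed isoform, had a log2 fold change of 0.44 (SE 0.15, adjusted P = 0.044) in the same comparison, below 1.5-fold. It was called there with TMM and RLE scaling (0.62, adjusted P = 0.0044, and 0.59, adjusted P = 0.006).

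Gpi1, which turns glucose phosphate into fructose phosphate, split the Slc29a3-/- Tlr7-/- libraries. Gpi1 was read at 457, 474, 429, and 459 RPM in WT, 699, 500.4, 576, and 912 in Slc29a3-/-, and 468, 170.3, 444, and 397 in Slc29a3-/- Tlr7-/- Ly6Chi libraries. In Ly6Clow libraries the values of Gpi1 were 285, 297, 274, and 289.9 RPM in WT, 237, 233, 259, and 244 in Slc29a3-/-, and 209, 264, 127, and 54.01 in Slc29a3-/- Tlr7-/- libraries. Ly6Chi replicate 2 and Ly6Clow replicates 3 and 4 of Slc29a3-/- Tlr7-/- mice were far below the rest of their groups, and G6pdx was low in the same 3 libraries. Gpi1 was higher in Slc29a3-/- than in Slc29a3-/- Tlr7-/- Ly6Chi cells by 0.92 (SE 0.27, adjusted P = 0.025), and by 0.59 (adjusted P = 0.028) without that replicate 2. In Ly6Clow cells it was -1.03 in Slc29a3-/- Tlr7-/- against WT (adjusted P = 0.073) and -0.58, no longer called, without replicate 4. Its difference of 0.79 (SE 0.34, adjusted P = 0.23) between the mutant genotypes in Ly6Clow cells was called at the unadjusted threshold only and lost without any 1 of the Slc29a3-/- libraries or of Slc29a3-/- Tlr7-/- replicates 3 and 4 (0.34 without the latter).

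Of the phosphofructokinases, which commit sugar to glycolysis, Pfkm (the muscle isoform) was the member called lower in Slc29a3-/- Ly6Chi cells, at low levels. Pfkm was read at 11.6, 10.7, 12.9, and 11.5 RPM in WT, 5.09, 8.30, 6.11, and 4.45 in Slc29a3-/-, and 7.47, 14.5, 8.55, and 7.22 in Slc29a3-/- Tlr7-/- Ly6Chi libraries. The Ly6Clow values of Pfkm were 8.32, 11.5, 6.11, and 7.13 RPM in WT, 4.53, 3.92, 4.26, and 5.08 in Slc29a3-/-, and 1.94, 9.21, 6.63, and 5.35 in Slc29a3-/- Tlr7-/- libraries. Slc29a3-/- libraries lay below all WT libraries in both subsets, and Slc29a3-/- Tlr7-/- libraries spanned both ranges. The log2 fold change against WT was -0.88 (SE 0.23, adjusted P = 0.012) in Ly6Chi and -0.74 (SE 0.32, adjusted P = 0.22) in Ly6Clow cells, and in Ly6Clow cells the call was lost without any 1 of WT replicates 1 and 2 and Slc29a3-/- replicates 1 to 3 (-0.58 without WT replicate 2). Against WT replicate 4 alone Pfkm was at -0.87 in Ly6Chi and -0.58 in Ly6Clow cells, neither called. Pfkl and Pfkp, the liver and platelet isoforms, and the aldolases Aldoa and Aldoc, which split the sugar in the next step, were not called in any genotype comparison. The log2 fold changes against WT in Slc29a3-/- Ly6Chi cells were -0.03 for Pfkl, -0.26 for Pfkp, 0.37 for Aldoa, and -0.47 for Aldoc. With TMM scaling Aldoa was called against Slc29a3-/- Tlr7-/- (0.60).

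In the lower part of glycolysis, Tpi1, which interconverts the triose phosphates, averaged 95.7 ± 4.71 RPM in WT, 154 ± 19.5 in Slc29a3-/-, and 105 ± 9.24 in Slc29a3-/- Tlr7-/- Ly6Chi cells (SD, n = 4 each). Its Slc29a3-/- libraries lay above all others, and Tpi1 rose by 0.68 (SE 0.12, adjusted P = 0.0014) against WT. Against Slc29a3-/- Tlr7-/- cells its difference of 0.55 (SE 0.12, adjusted P = 0.0055) fell just short of 1.5-fold, and it was called there with TMM scaling. Pkm, the pyruvate kinase that ends glycolysis, was read at 1948 to 2383 RPM in WT and 2586 to 3087 RPM in Slc29a3-/- Ly6Chi libraries, which did not overlap, with a log2 fold change of 0.44 (SE 0.15, adjusted P = 0.041), also under 1.5-fold. Glycolytic genes such as Tpi1, Aldoa, and Ldha have processed pseudogenes in the mouse, and whether an amplicon also read such copies was not tested.

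Ldha, the subunit that favours lactate formation, was not called in any genotype comparison. Ldha was read at 539, 506, 533, and 688 RPM in WT, 593, 556, 548, and 774 in Slc29a3-/-, and 432, 374, 474, and 565 in Slc29a3-/- Tlr7-/- Ly6Chi libraries. In Ly6Clow libraries the values of Ldha were 664, 590.4, 619.9, and 549 RPM in WT, 600.2, 691, 761, and 618 in Slc29a3-/-, and 649.5, 670.2, 437, and 229.6 in Slc29a3-/- Tlr7-/- libraries. The Ly6Chi WT and Slc29a3-/- libraries overlapped, with replicate 4 the highest in both groups, and the log2 fold change was 0.12 (SE 0.16, adjusted P = 0.6). Ldhb, the subunit that favours lactate use, had a difference of 0.50 (SE 0.16, adjusted P = 0.032) in Ly6Chi and -0.51 (SE 0.27, adjusted P = 0.31) in Ly6Clow cells, neither called, and the interaction between them was called (1.01, adjusted P = 0.043). Pdk1, the kinase that keeps pyruvate out of the mitochondrial oxidation, was read at 4.46 to 10.5 RPM in WT, 12.4 to 17.95 in Slc29a3-/-, and 6.39 to 9.61 in Slc29a3-/- Tlr7-/- Ly6Clow libraries. The Slc29a3-/- libraries were the highest, with log2 fold changes of 0.80 (SE 0.25, adjusted P = 0.081) and 0.76 (SE 0.25, adjusted P = 0.14), called at the unadjusted threshold only, the first of them not without WT replicate 2 (0.56) or against WT replicate 4 alone (0.43).

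The PFKFB enzymes make and degrade the fructose bisphosphate that activates phosphofructokinase, and both measured members rose in Slc29a3-/- against WT Ly6Chi cells. In Ly6Clow cells the same difference was 0.11 (SE 0.28) for Pfkfb4, not called. Pfkfb3, the isoform with the strongest kinase activity, was read at 66.04, 67.7, 63.4, and 78.5 RPM in WT, 81.3, 128, 119.9, and 119 in Slc29a3-/-, and 82.4, 118, 111, and 109 in Slc29a3-/- Tlr7-/- Ly6Chi libraries. In Ly6Clow libraries Pfkfb3 was read at 106, 85.6, 90.1, and 116 RPM in WT, 272, 303, 253, and 327 in Slc29a3-/-, and 112, 206, 271, and 284 in Slc29a3-/- Tlr7-/- libraries. All Ly6Clow Slc29a3-/- libraries lay above all WT libraries by a wide gap, and the Slc29a3-/- Tlr7-/- libraries reached from the WT range into the Slc29a3-/- range. In Ly6Clow cells Pfkfb3 rose by 1.53 (SE 0.24, adjusted P = 0.0025) in Slc29a3-/- and by 1.05 (SE 0.24, adjusted P = 0.023) in Slc29a3-/- Tlr7-/- cells against WT, and it was not called between the mutant genotypes (0.48, SE 0.24, adjusted P = 0.28). The first was 1.30 against WT replicate 4 alone (called, adjusted P = 0.38) and the second 0.82 (not called). In Ly6Chi cells the differences from WT were 0.67 (SE 0.16, adjusted P = 0.0069) and 0.59 (SE 0.16, adjusted P = 0.068). The second of these sat at the 1.5-fold limit, and leaving out 1 of WT replicates 1 and 3 or of Slc29a3-/- Tlr7-/- replicates 2 to 4 ended its call (0.53 without replicate 2).

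With all 4 WT libraries, Pfkfb4 had the largest Ly6Chi increase against WT among the members. When WT replicate 4 stood alone, the members with a larger increase than Pfkfb4 included Slc2a3, Rpia, Slc16a1, Hk3, Tkt, Tpi1, Pgd, and Slc16a3. Pfkfb4 was read at 40.7, 40.9, 38.9, and 61.9 RPM in WT, 83.3, 95.04, 107, and 90.1 in Slc29a3-/-, and 78.4, 62.1, 57.7, and 70.9 in Slc29a3-/- Tlr7-/- Ly6Chi libraries. Its Ly6Clow values were 37.3, 40.7, 37.9, and 91.2 RPM in WT, 56.9, 48.8, 50.2, and 52.1 in Slc29a3-/-, and 61.3, 40.5, 63.8, and 92.8 in Slc29a3-/- Tlr7-/- libraries. WT replicate 4 was the highest WT library in both subsets, and in Ly6Clow cells it exceeded every Slc29a3-/- library. In Ly6Chi cells Pfkfb4 rose by 1.05 (SE 0.16, limma adjusted P = 0.00065) against all WT libraries and by 0.59 against WT replicate 4 alone. In Slc29a3-/- Tlr7-/- against WT Ly6Chi cells it differed by 0.57 (SE 0.16), not called, and by 0.59 with TMM scaling, called. Between the mutant genotypes the Ly6Chi difference of Pfkfb4 was 0.48 (SE 0.16), not called with the deposited scaling.

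**Figure D4:**
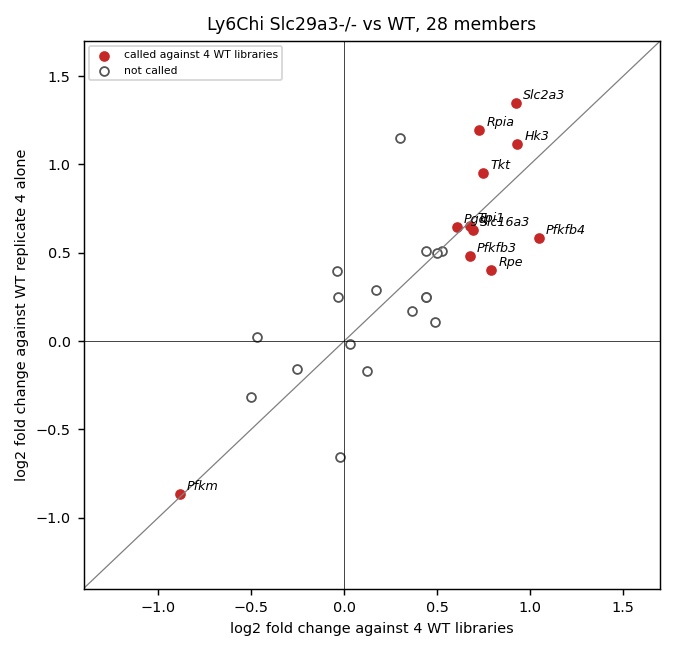
Log2 fold changes of the 28 members in Slc29a3-/- against WT Ly6Chi monocytes, computed with all 4 WT libraries (x axis) and with WT replicate 4 alone (y axis), with filled points for members called with all 4 and a line of equality. Hk3, Tkt, Rpia, and Slc2a3 lie above the line, and Pfkfb3, Pfkfb4, and Rpe below it.

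In the oxidative pentose phosphate branch, Pgd, the phosphogluconate dehydrogenase that yields NADPH, averaged 456 ± 11.1 RPM in WT, 696 ± 75.2 in Slc29a3-/-, and 619 ± 145 in Slc29a3-/- Tlr7-/- Ly6Chi cells (SD, n = 4 each). It rose in Slc29a3-/- cells by 0.60 (SE 0.15, limma adjusted P = 0.0089) against WT, just over 1.5-fold, and was not called without Slc29a3-/- replicate 3 (0.53). Pgd also differed by 0.41 (SE 0.15) in Slc29a3-/- Tlr7-/- against WT Ly6Chi cells and by 0.19 (SE 0.15) between the mutant genotypes, neither called. G6pdx, the rate-limiting dehydrogenase of the branch, lies on the X chromosome and was read at 228, 212, 216, and 310.2 RPM in WT, 359, 307, 259, and 439 in Slc29a3-/-, and 331, 66.9, 313, and 205 in Slc29a3-/- Tlr7-/- Ly6Chi libraries. The Ly6Clow values of G6pdx were 208, 264, 201, and 298 RPM in WT, 263, 246, 276, and 288 in Slc29a3-/-, and 254, 262, 85.6, and 25.2 in Slc29a3-/- Tlr7-/- libraries. The same Slc29a3-/- Tlr7-/- libraries in which Gpi1 was low held the lowest G6pdx values, and of these 3, Ly6Chi replicate 2 held Xist and Y-linked reads, Ly6Clow replicate 3 Y-linked reads only, and Ly6Clow replicate 4 Xist only. G6pdx was not called in Ly6Chi cells (0.49, SE 0.38, adjusted P = 0.36 against WT). Between Slc29a3-/- and Slc29a3-/- Tlr7-/- Ly6Clow cells its difference was 1.28 (SE 0.53, adjusted P = 0.22), called at the unadjusted threshold only and lost without any 1 of Slc29a3-/- replicates 1, 3, and 4 and Slc29a3-/- Tlr7-/- replicates 3 and 4 (0.58 without the last of these). Pgls, the lactonase between them, was not called in any genotype comparison.

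Of the 4 enzymes of the non-oxidative branch, 3 rose in Slc29a3-/- Ly6Chi cells against WT. Tkt, the transketolase that moves carbon pairs between sugars, was read at 1219, 1043, 1290.0, and 973 RPM in WT, 1745, 1644, 2069, and 2130.1 in Slc29a3-/-, and 1257, 1169, 1027, and 1304 in Slc29a3-/- Tlr7-/- Ly6Chi libraries. Tkt in Ly6Clow libraries was read at 1148, 1083, 1083, and 902 RPM in WT, 873, 1020.3, 926, and 835 in Slc29a3-/-, and 949, 1051, 1131, and 1187 in Slc29a3-/- Tlr7-/- libraries. The 4 Slc29a3-/- Ly6Chi libraries were above the other 8, while in Ly6Clow cells the genotypes overlapped. Tkt rose in Ly6Chi cells by 0.75 (SE 0.14, adjusted P = 0.0022) against WT and 0.67 (SE 0.14, adjusted P = 0.005) against Slc29a3-/- Tlr7-/-, and its change differed from that in Ly6Clow cells in both interactions (0.95, adjusted P = 0.002, and 0.91, adjusted P = 0.0035). Against WT replicate 4 alone it was 0.95 (called, adjusted P = 0.079).

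Rpia, the isomerase that makes ribose phosphate, was read at 53.8, 42.4, 53.7, and 31.8 RPM in WT, 66.4, 56.5, 84.3, and 96.02 in Slc29a3-/-, and 37.3, 57.8, 39.4, and 35.8 in Slc29a3-/- Tlr7-/- Ly6Chi libraries. In Ly6Clow libraries Rpia was read at 25.6, 33.1, 27.7, and 28.1 RPM in WT, 33.6, 28.6, 21.5, and 20.2 in Slc29a3-/-, and 26.6, 27.2, 39.7, and 40.03 in Slc29a3-/- Tlr7-/- libraries. The Slc29a3-/- Ly6Chi libraries lay above the WT libraries, and 1 of the Slc29a3-/- Tlr7-/- libraries reached into their range. Rpia rose by 0.73 (SE 0.21, adjusted P = 0.02) against WT, which fell to 0.57 and was not called without WT replicate 4, and by 0.82 (SE 0.21, adjusted P = 0.015) against Slc29a3-/- Tlr7-/-. Rpe, the epimerase beside it, was read at 76.4, 69.7, 78.01, and 107 RPM in WT, 142, 129, 144, and 154 in Slc29a3-/-, and 109, 77.7, 109, and 86.6 in Slc29a3-/- Tlr7-/- Ly6Chi libraries. The Ly6Clow values of Rpe were 73.7, 68.3, 67.9, and 86.2 RPM in WT, 74.1, 82.00, 84.3, and 73.01 in Slc29a3-/-, and 77.6, 87.3, 49.2, and 41.4 in Slc29a3-/- Tlr7-/- libraries. All Slc29a3-/- Ly6Chi libraries exceeded the other 8, and WT replicate 4 was the highest WT library in both subsets. Rpe rose by 0.79 (SE 0.16, adjusted P = 0.0024) against 4 WT libraries, but by 0.40 (adjusted P = 0.44, not called) against WT replicate 4 alone. Taldo1, the transaldolase, was not called in Slc29a3-/- against WT Ly6Chi cells (0.44, SE 0.17, limma adjusted P = 0.07), but it was with TMM scaling (0.62). Taldo1 also differed by 0.54 (SE 0.17) in Slc29a3-/- Tlr7-/- against WT Ly6Chi cells and by -0.10 (SE 0.17) between the mutant genotypes, neither called. In Ly6Clow cells it was read at 401, 369.6, 377, and 621 RPM in WT and 475, 554, 793, and 987 RPM in Slc29a3-/- Tlr7-/- libraries, where WT replicate 4 lay among the latter. Its difference of 0.64 (SE 0.22, adjusted P = 0.078) was called at the unadjusted threshold only and lost without any 1 of WT replicates 2 and 3 and Slc29a3-/- Tlr7-/- replicates 3 and 4 (0.46 without the last of these). It was 0.12 against WT replicate 4 alone.

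Promoter sequences are shown for Hk3, Rpia, and Tkt, because these members rose in Slc29a3-/- Ly6Chi cells against both other genotypes. Slc2a3, the other such member, had no entry in the RefSeq promoter table used (GRCm38.p6), which held 39 promoters of 27 of the 28 members. Each promoter ran from 250 bases before to 50 after a listed start, of which a gene can have several. The start used for Hk3 lay inside the gene, whose outer end is at 55021475. Capitals mark ACGTG, a form of the core of the hypoxia response element bound by HIF, or its reverse complement CACGT. The other form of that core, GCGTG, was neither marked nor counted, and it or its reverse complement occurs in the printed Rpia and Tkt stretches. The E-box CACGTG, bound by MYC and ChREBP, contains the letters of ACGTG. Hk3 (chr13:55021336-55021635, minus strand) held 1 ACGTG, whereas Rpia (chr6:70792126-70792425, minus strand) and Tkt (chr14:30548881-30549180, plus strand) held none, and none of the 3 held CACGTG.
Hk3: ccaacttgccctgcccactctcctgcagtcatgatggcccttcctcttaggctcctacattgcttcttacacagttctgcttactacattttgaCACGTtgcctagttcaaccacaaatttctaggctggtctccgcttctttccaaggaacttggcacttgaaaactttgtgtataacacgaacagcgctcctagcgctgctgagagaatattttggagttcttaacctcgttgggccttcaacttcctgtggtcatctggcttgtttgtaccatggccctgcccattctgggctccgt
Rpia: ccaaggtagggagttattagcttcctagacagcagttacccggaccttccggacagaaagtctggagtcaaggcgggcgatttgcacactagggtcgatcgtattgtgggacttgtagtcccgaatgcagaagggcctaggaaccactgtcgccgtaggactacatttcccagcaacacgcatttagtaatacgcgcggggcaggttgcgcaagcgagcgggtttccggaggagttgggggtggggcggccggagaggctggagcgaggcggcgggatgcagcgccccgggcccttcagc
Tkt: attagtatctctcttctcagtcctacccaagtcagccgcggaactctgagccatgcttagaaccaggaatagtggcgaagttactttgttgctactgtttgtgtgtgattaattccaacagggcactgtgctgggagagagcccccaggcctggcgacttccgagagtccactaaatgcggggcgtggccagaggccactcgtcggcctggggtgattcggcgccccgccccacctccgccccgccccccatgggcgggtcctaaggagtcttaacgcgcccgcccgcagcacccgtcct
ACGTG was in 17 of the 39 member promoters (43.6%) and in 4 of the 11 promoters of members that rose in Slc29a3-/- against WT Ly6Chi cells (36.4%), beside 19.6% of all 32851 promoters of that length. CACGTG was in 5 (12.8%), in 1 (9.09%), and in 7.15%. The member promoters were also richer in G and C, with a median of 60.7% against 52.7% of all promoters. These are letter matches in a fixed window and no measure of binding.

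Hif1a encodes the oxygen-regulated subunit of HIF, which drives many glycolytic genes and is controlled mostly after transcription. Hif1a was read at 73.8, 67.7, 75.98, and 131 RPM in WT, 89.3, 78.3, 86.5, and 77.8 in Slc29a3-/-, and 72.4, 115, 149, and 80.8 in Slc29a3-/- Tlr7-/- Ly6Chi libraries. In Ly6Clow libraries the values of Hif1a were 58.1, 57.9, 56.05, and 79.9 RPM in WT, 59.6, 62.2, 83.4, and 85.1 in Slc29a3-/-, and 73.8, 71.00, 49.2, and 33.3 in Slc29a3-/- Tlr7-/- libraries. WT replicate 4 exceeded the other WT libraries in both subsets, and the genotypes overlapped. The log2 fold change of Hif1a in Slc29a3-/- against WT Ly6Chi cells was -0.02 (SE 0.23, adjusted P = 0.96).

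Other genes of the same metabolism were counted by the same rule, with the same backgrounds of 9.38% higher and 17.3% lower against WT and 10.5% and 11.9% against Slc29a3-/- Tlr7-/-. Of 28 tested further genes of glucose metabolism, 4 were higher and 2 lower in Slc29a3-/- than in WT Ly6Chi cells (median -0.11), and 3 were higher and 1 lower against Slc29a3-/- Tlr7-/-. Those that changed most at an adjusted P under 0.05 were Pklr, a liver and erythrocyte pyruvate kinase (-1.60, adjusted P = 0.009 against WT), Fbp1, an enzyme of gluconeogenesis (1.57, adjusted P = 0.0011 against WT and 1.34, adjusted P = 0.0032 against Slc29a3-/- Tlr7-/-), and Adpgk, an ADP-dependent glucokinase (2.08, adjusted P = 0.00014 against Slc29a3-/- Tlr7-/-). Of 17 tested HIF pathway genes and HIF targets outside glycolysis, 3 were higher and 2 lower against WT (median 0.04) and 4 higher and 1 lower against Slc29a3-/- Tlr7-/-. The most changed were Ddit4, a brake on mTOR signalling (-1.44, adjusted P = 0.0057 against WT), Ero1l, an oxidase of protein folding (1.18, adjusted P = 0.00011 and 1.11, adjusted P = 0.00013), and Vegfa, the angiogenic growth factor (2.19, adjusted P = 0.0026 against Slc29a3-/- Tlr7-/-). Of 10 tested MYC-related and glucose-sensing regulators, 1 was higher and 2 lower in either comparison. Mlxip, a glucose-responsive factor (-1.09, adjusted P = 0.0013), and Nfe2l2, the antioxidant regulator NRF2 (0.84, adjusted P = 0.0083), changed most against WT, and Txnip and Arrdc4, arrestins that restrain glucose uptake (-1.10, adjusted P = 0.028 and -0.95, adjusted P = 0.028), against Slc29a3-/- Tlr7-/-.

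Genes of other programs and cell types moved with the members in Ly6Chi cells. All 12 measured proliferation genes were higher in Slc29a3-/- than in WT (median 1.35) and than in Slc29a3-/- Tlr7-/- libraries (median 1.78), and their sum was 622 to 1009 RPM in WT, 1703 to 2973 in Slc29a3-/-, and 485 to 825 in Slc29a3-/- Tlr7-/- libraries. The largest differences were those of Cdk1 and Bub1 against WT (1.65, adjusted P = 0.00017, and 1.62, adjusted P = 0.0012) and of Tyms and Rrm2 against Slc29a3-/- Tlr7-/- (2.16, adjusted P = 0.0033, and 2.06, adjusted P = 0.00029). Although Ly6G+ cells were excluded by the sort, the 12 measured neutrophil genes summed to 14208 to 22125, 43646 to 83510.1, and 6592 to 22179.6 RPM in the same order, and 8 of them were higher and 2 lower against WT and 10 higher and 1 lower against Slc29a3-/- Tlr7-/-. Cebpe, a factor of granulocyte precursors (1.92, adjusted P = 0.00042), and Retnlg, a mature neutrophil gene (-2.11, adjusted P = 0.023), moved most against WT and in opposite directions, and Ly6g and Ltf most against Slc29a3-/- Tlr7-/- (2.82, adjusted P = 0.0019, and 2.68, adjusted P = 0.00041). Granulocyte-monocyte progenitor genes (6 of 8 higher and 1 lower in both comparisons, led by Elane and Ctsg at 2.31 and 2.28 against WT and by Ms4a3 and Prtn3 at 1.72 and 1.60 against Slc29a3-/- Tlr7-/-) summed to 372 to 471, 876 to 2905, and 386 to 958 RPM. In Ly6Clow libraries the neutrophil sums were 218 to 1428, 137 to 238, and 154 to 208 RPM, with Ly6g and Ms4a3 at 0 in all Slc29a3-/- Tlr7-/- libraries. In bulk samples, more or fewer cells of a type and a change of RNA per cell cannot be told apart, and the part of these cells and of proliferation in the members' differences was not tested.

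Lower in Slc29a3-/- Ly6Chi libraries were the 7 dendritic cell genes (7 lower in both comparisons, sums of 328 to 469.7, 123 to 264, and 377 to 489 RPM), led by Siglech and Clec9a (-3.27 and -2.80 against WT). The 7 T and NK cell genes (7 lower against WT and 2 against Slc29a3-/- Tlr7-/-, led by Klrb1c and Cd3g at -4.11 and -3.45 and by Cd8a and Cd4 at -2.08 and -1.32) summed to 130.3 to 508, 22.2 to 44.7, and 21.9 to 620.3 RPM. Of the 12 immediate early and heat shock genes, which respond to handling and stress, 8 were lower against WT (Fosb at -5.66 and Dusp1 at -5.04 the most) and 5 against Slc29a3-/- Tlr7-/- (Hspa1b and Hspa1a the most, at -3.43 and -3.31). Their sum was 1035 to 12585 RPM in WT Ly6Chi libraries, where replicate 4 was the lowest, 563 to 917 in Slc29a3-/-, and 1089 to 4567 in Slc29a3-/- Tlr7-/- libraries. B cell genes (1 tested, Cd79b lower against WT at -0.97) and erythroid genes (3 tested, Tfrc higher against both genotypes at 1.00 and 1.11, Car2 and Epor lower against WT at -1.20 and -1.06) summed to 14.5 to 20.8 and 34.6 to 53.5 RPM in Slc29a3-/-, 30.3 to 38.7 and 34.8 to 62.1 RPM in WT, and 15.4 to 38.1 and 29.2 to 38.99 RPM in Slc29a3-/- Tlr7-/- libraries. Of 6 red pulp macrophage genes, 1 was lower against WT (Cd163, -1.87) and 1 higher and 2 lower against Slc29a3-/- Tlr7-/- (Slc40a1 at 1.46 the most). None of the 4 Ly6Chi markers was called against WT, 1 was lower against Slc29a3-/- Tlr7-/-, and of the 7 Ly6Clow markers 3 were higher and 1 lower against WT (Cd300e 1.62, Nr4a1 -1.83) and 2 higher and 1 lower against Slc29a3-/- Tlr7-/- (Spn 0.90). None of the 5 sex-linked genes was called in either comparison. The part of these differences in those of the members was not tested either.

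Members differed between the subsets in every genotype, beside genes of proliferation and of other cell types. In WT cells 10 members were higher and 2 lower in Ly6Chi than in Ly6Clow monocytes, where 19.6% and 9.64% of all 11042 genes were. In Slc29a3-/- cells, 14 were higher and 6 lower (backgrounds 17.3% and 20.3%), and in Slc29a3-/- Tlr7-/- cells 11 were higher and 2 lower (backgrounds 20.9% and 10.7%). The member medians of 0.27, 0.67, and 0.42 stood beside medians of all genes of 0.07, -0.10, and 0.12. Ldhb had the largest difference in WT cells, 2.49 (SE 0.22, adjusted P = 4.3e-09), with 20.9 to 22.6 RPM in Ly6Chi and 2.75 to 3.45 RPM in Ly6Clow libraries. Hk3 (1.07), Hk1 (0.67), Pgd (0.83), Pgls (0.98), Slc16a1 (0.99), and Slc2a3 (1.78) were higher in Ly6Chi cells of all 3 genotypes, as was Ldhb. Slc16a3 was lower in Ly6Chi cells of all 3, with log2 differences of -1.14 in WT, -1.03 in Slc29a3-/-, and -1.24 in Slc29a3-/- Tlr7-/- cells, so the lactate transporters differed between the subsets in opposite directions. Ldha was called in none of them. Against WT replicate 4 alone, 5 members were higher in Ly6Chi WT cells (Ldhb, Slc2a3, Pgls, Pkm, and Hk2, beside 8.29% of all genes). Hk3 (0.55), Hk1 (0.06), Pgd (0.49), and Slc16a1 (0.42) were no longer called. All 12 proliferation genes were higher in the Ly6Chi cells of each genotype (medians of 3.10 in WT, 4.56 in Slc29a3-/-, and 2.97 in Slc29a3-/- Tlr7-/-). Higher in the same order were 12, 11, and 10 of 12 neutrophil genes, 7, 7, and 6 of 8 progenitor genes, and 6, 0, and 4 of 7 T and NK cell genes. The part of these genes in the members' differences between subsets was not tested.

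The effect of the genotype on a member was then compared between the subsets as an interaction. Against WT, 9 members had a larger and 2 a smaller effect in Ly6Chi than in Ly6Clow cells (backgrounds 7.94% and 12.3%), of which Slc2a3, Hk3, Ldhb, Pgd, and Tkt had an adjusted P under 0.05 (backgrounds 4.11% and 4.65%). Against Slc29a3-/- Tlr7-/-, 7 had a larger and 1 a smaller effect (backgrounds 8.07% and 14.6%), of which Slc2a3, Hk3, Rpia, and Tkt had an adjusted P under 0.05 (backgrounds 4.53% and 4.41%). Slc2a3 stood out with opposite signs, and Hk3, Rpia, and Tkt were positive in Ly6Chi cells and near or below 0 in Ly6Clow cells. Pfkfb3 went the other way against WT, with the larger effect in Ly6Clow cells (-0.86, SE 0.30, adjusted P = 0.075), called at the unadjusted threshold only and not against WT replicate 4. With WT replicate 4 alone, 8 members had a larger effect in Ly6Chi cells (6.75% of all genes) and none of these interactions had an adjusted P under 0.05, with Slc2a3 and Tkt at 2.33 and 0.94.

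**Figure D5:**
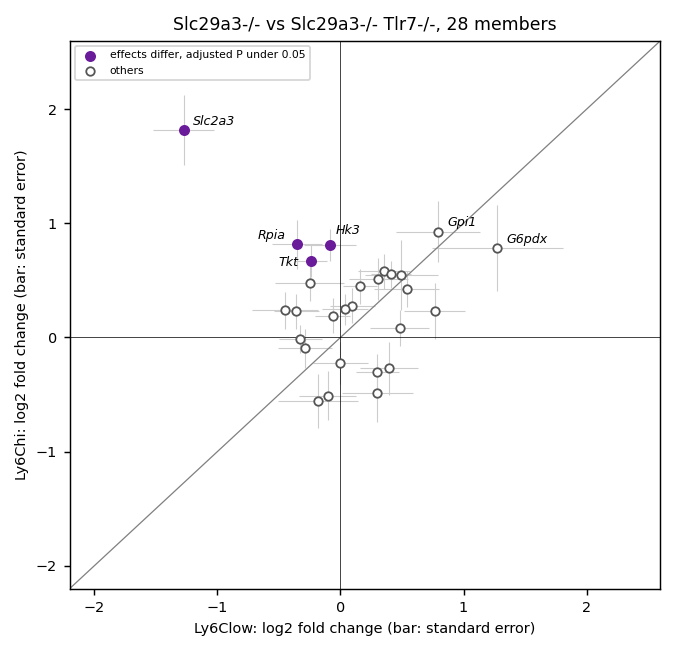
Log2 fold changes of the 28 members in Slc29a3-/- against Slc29a3-/- Tlr7-/- monocytes of the Ly6Clow (x axis) and Ly6Chi (y axis) subsets, with standard errors and a line of equality, and filled points for an interaction with an adjusted P under 0.05. Slc2a3 lies at -1.27 and 1.82, and Gpi1 and G6pdx are positive in both subsets.

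Ratios of isoforms within a library hardly depend on its scaling. Of 6 such log2 ratios compared in 6 genotype comparisons (36 exact two-sided permutation tests of 4 against 4 libraries, whose smallest possible P is 0.029), none had an adjusted P under 0.05. An adjusted P that low would have required most of the 36 tests to reach the smallest P, so its absence says little about single ratios. In Ly6Chi cells, Slc2a3 against Slc2a1 was higher in Slc29a3-/- than in WT libraries by 1.42 and than in Slc29a3-/- Tlr7-/- libraries by 2.33, and in Ly6Clow cells it differed by -1.11 and -1.17, each with no overlap and at the smallest exact permutation P (0.029, adjusted 0.11). Hk2 against Hk3 differed by -0.90 and -0.82 in the Ly6Chi comparisons, also at the smallest exact permutation P. Ldha against Ldhb differed by 0.65 between Slc29a3-/- and WT Ly6Clow libraries at the same exact permutation P, with Ldhb read at only 1.19 to 2.52 RPM in the former. In Ly6Chi cells Ldha against Ldhb differed by -0.56 between Slc29a3-/- Tlr7-/- and WT libraries, and Hk1 against Hk3 by -0.49 between Slc29a3-/- and WT Ly6Chi cells, both at that exact permutation P, the first at an exact permutation P of 0.057 with a pseudocount of 0.1.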

How the data were processed

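RNA of 24 libraries from sorted splenic monocytes was read with an Ion AmpliSeq mouse transcriptome panel. The authors deposited 1 table of RPM, reads scaled to the same total in every library, for 23930 amplicons. The AmpliSeqRNA plug-in of the sequencer and a separate alignment and counting workflow are both named as upstream tools, and which of them produced the table is not given in the sources used here. Cells holding 0.0001 were taken as 0, and 27 gene names turned into dates by a spreadsheet were restored. Values that 3 reads would give lie near 0.2 RPM, below the filter, and cover counting error only. From the deposited values log2(RPM + 1) was computed for amplicons with at least 1 RPM in at least 4 libraries of the 12 of a subset, or of the 24 for comparisons across subsets, and limma 3.58.1 (R 4.3.3) was run for 11 comparisons (intensity trend, all groups of the subset or of both subsets, no covariates), with P-values adjusted by Benjamini-Hochberg over all genes. Calls used a fold over 1.5 and an unadjusted P under 0.05, the thresholds the study states, and were counted again at an adjusted P under 0.05. Isoform ratios were tested by exact two-sided permutation. Scripts were tested on simulated data.

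The members and lists were chosen with earlier results of these data known. Values in every library are given for up to 6 members per genotype comparison, by size of change, among those with an adjusted P under 0.05, and for Ldha, Hk2, Hk3, G6pdx, Slc2a1, and Hif1a whatever their test. From each other list the counts are given, and by name the 2 most changed genes with an adjusted P under 0.05 in both Ly6Chi comparisons of Slc29a3-/- cells. Other genes named were chosen after their values were seen. Alternatives covered scaling (TMM, RLE), pseudocount, filters, groups in the fit, the intensity trend, a replicate block, and leaving out libraries. Deviations from the group means of same-numbered WT libraries of the 2 subsets correlated in every pair (0.26 to 0.62). The same number gave the highest correlation for replicates 1 and 4, but not for replicates 2 and 3. Because replicate 4 lay far from the others in both subsets, these correlations cannot show that the numbers of replicates 1 to 3 pair libraries. In the other 14 pairs of groups at least 1 correlation was 0.1 or less. Depth bounds the counting error only, and noise from amplification was not measured.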

Additional observations from a re-analysis of the deposited data

Results flagged for a closer look

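In 14 of 168 sets of 4 libraries (28 members in 6 groups), 1 library lay apart from the other 3 by Dixon's criterion, which chance meets in about 1 in 20 sets. WT replicate 4 was that library in 7 of them. In Ly6Chi cells it read 6.08 RPM for Slc16a1 (13.8 to 15.3 in the other WT libraries), 61.9 for Pfkfb4 (38.9 to 40.9), 310.2 for G6pdx (212 to 228), and 130.8 for Hif1a (67.7 to 76.0), and in Ly6Clow cells 91.2 for Pfkfb4 (37.3 to 40.7), 621 for Taldo1 (369.6 to 401), and 79.9 for Hif1a (56.1 to 58.1). Slc29a3-/- Tlr7-/- replicate 2, which held Xist and Y-linked reads in both subsets, read 57.8 RPM for Rpia in Ly6Chi cells (35.8 to 39.4 in the others) and 7.54 for Slc16a1 in Ly6Clow cells (2.91 to 3.67). The remaining values were 28.7 RPM for Slc2a1 in Ly6Clow WT replicate 1 (others 31.6 to 31.8), 59.0 for Hk1 in Ly6Chi Slc29a3-/- Tlr7-/- replicate 4 (78.0 to 79.6), 88.7 for Tpi1 in Ly6Chi WT replicate 2 (97.3 to 98.9), 154 for Tpi1 in Ly6Clow Slc29a3-/- replicate 4 (122.6 to 128), and 35.4 for Ldhb in Ly6Chi Slc29a3-/- replicate 3 (29.2 to 30.05).

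The effect of the genotype differed between the subsets, by the interaction in limma at an adjusted P under 0.05, for 5 members against WT and 4 against Slc29a3-/- Tlr7-/-. Against WT the differences, Ly6Chi minus Ly6Clow, were 2.10 for Slc2a3 (adjusted P = 0.0020), 1.01 for Ldhb (0.043), 0.95 for Tkt (0.0020), 0.93 for Hk3 (0.022), and 0.70 for Pgd (0.029). Against Slc29a3-/- Tlr7-/- they were 3.09 for Slc2a3 (0.00028), 1.17 for Rpia (0.017), 0.91 for Tkt (0.0035), and 0.90 for Hk3 (0.028). Both sets use the same Slc29a3-/- libraries. Ldhb was read at 1.19 to 3.45 RPM in Ly6Clow WT and Slc29a3-/- libraries, so its difference rests on low values in that subset.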

How the results depend on the processing

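Of 1873 values of called members under an alternative, 161 ended the call and none changed its direction. Counts and medians below are of members, without those of all genes, which also move with the setting. With TMM scaling, 13.9% instead of 9.38% of all genes were higher in Slc29a3-/- than in WT Ly6Chi cells. The counts and medians of this paragraph therefore make no comparison with all genes. With TMM and RLE scaling, the Slc29a3-/- against WT Ly6Chi median was 0.62 and 0.59, that against Slc29a3-/- Tlr7-/- 0.42 and 0.38 (12 and 10 higher), that between subsets 0.76 and 0.77 in Slc29a3-/- and 0.30 and 0.31 in Slc29a3-/- Tlr7-/- cells, that of the interaction against WT 0.45 and 0.44 (with TMM 1 lower) and against Slc29a3-/- Tlr7-/- 0.40 and 0.39 (0 lower in both), 2 members instead of 1 were called higher for Slc29a3-/- Tlr7-/- against WT Ly6Chi cells in both, and RLE gave a median of -0.019 between the mutant genotypes in Ly6Clow cells. With adjusted P, 0 were higher and 0 lower in Slc29a3-/- Tlr7-/- against WT Ly6Chi cells (limma, where 1 and 1 passed unadjusted), 1 and 1 in Slc29a3-/- and 1 and 0 in Slc29a3-/- Tlr7-/- against WT Ly6Clow cells, 0 higher between the mutant genotypes there, and 5 and 0 and 4 and 0 in the interactions against WT and Slc29a3-/- Tlr7-/-. Against WT replicate 4 alone, 0 were lower in Slc29a3-/- and 0 higher in Slc29a3-/- Tlr7-/- Ly6Chi cells, 1 was higher in each mutant in Ly6Clow cells (medians -0.15 and -0.25), 5 were higher in Ly6Chi than Ly6Clow WT cells (median 0.14), and 0 were lower in the interaction (median 0.44). With a mean of at least 10 RPM, 0 were lower in Slc29a3-/- against WT Ly6Chi cells and 1 in Ly6Clow cells (1 also with no filter), the median against Slc29a3-/- Tlr7-/- in Ly6Chi cells was 0.42, that between subsets 0.83 in Slc29a3-/- cells, and that of the interaction against WT 0.42 (1 lower), fewer members being tested. With a pseudocount of 0.1, 1 was lower against Slc29a3-/- Tlr7-/- in Ly6Chi cells. With all 24 libraries in the fit, 2 were lower in Slc29a3-/- Tlr7-/- against WT Ly6Clow cells, and with only the groups compared 1 was higher between the mutant genotypes there. Without the libraries that held Xist and Y-linked reads, an alternative chosen after seeing the data, 5 were lower in Slc29a3-/- Tlr7-/- against WT Ly6Clow cells, 5 were higher and 2 lower between the mutant genotypes there, the median between subsets in Slc29a3-/- Tlr7-/- cells was 0.30, and the interaction against this genotype had 2 lower and a median of 0.0041. With no intensity trend it had 2 lower, and with the replicate block, which changed no other count by over 1.5 times, also 2.

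The ranges below are counts of members without the share of all genes, which also moves with the library left out. Without Slc29a3-/- Tlr7-/- replicate 2, 18.5% instead of 14.6% of all genes were lower in this genotype than in WT Ly6Clow cells. The ranges therefore make no comparison with all genes. Leaving out 1 library at a time gave, in Slc29a3-/- against WT Ly6Chi cells, 9 to 11 higher and 1 to 2 lower (2 without WT replicate 4 or Slc29a3-/- replicate 3). It gave 0 to 3 higher (0 without WT replicate 1 or 3 or Slc29a3-/- Tlr7-/- replicate 4, 3 without WT replicate 4) in Slc29a3-/- Tlr7-/- against WT and 5 to 8 higher (8 without Slc29a3-/- Tlr7-/- replicate 1) and 0 to 2 lower (2 without its replicate 4) between the mutant genotypes in Ly6Chi cells. In Ly6Clow cells the ranges were 1 to 3 higher (1 without WT replicate 2) and 1 to 2 lower (1 without WT replicates 1 or 2 or Slc29a3-/- replicates 1 to 3) in Slc29a3-/- against WT, 1 to 3 higher (1 without WT replicates 2 or 3 or Slc29a3-/- Tlr7-/- replicates 3 or 4) and 0 to 5 lower (0 without Slc29a3-/- Tlr7-/- replicate 4, 5 without its replicate 2, medians -0.12 to 0.037) in Slc29a3-/- Tlr7-/- against WT, and 1 to 5 higher (1 without Slc29a3-/- replicates 1, 3, or 4, 5 without Slc29a3-/- Tlr7-/- replicate 2) and 1 to 2 lower between the mutant genotypes. Between subsets 1 to 2 were lower in WT (1 without Ly6Clow replicate 1), and the median was 0.30 to 0.48 in Slc29a3-/- Tlr7-/- cells. The interaction against WT had 1 to 2 lower, and that against Slc29a3-/- Tlr7-/- 4 to 7 higher (4 without Ly6Clow replicate 3 or 4 of that genotype), 0 to 3 lower, and a median of 0.061 to 0.22.

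Among the isoform ratios, WT replicate 4 alone gave Hk2/Hk3 of -0.31 in Slc29a3-/- Tlr7-/- Ly6Chi cells. In Slc29a3-/- and Slc29a3-/- Tlr7-/- Ly6Clow cells Hk2/Hk3 was 0.37 and 0.62 against that library. Ldha/Ldhb was -0.67 and -0.85 against it in Ly6Chi cells of these genotypes and 0.92 in Slc29a3-/- Ly6Clow cells. With a pseudocount of 0.1 the last of these was 1.16, and 0.85 against all 4 WT libraries. Slc2a3/Slc2a1 was -0.87 in Slc29a3-/- Ly6Clow cells against WT replicate 4 alone. Slc16a3/Slc16a1 was -0.52 and -0.49 against it in Ly6Chi and -0.27 and -0.079 in Ly6Clow cells, with Slc29a3-/- first. Where a value moved, the cause was not tested. Count models (edgeR, DESeq2) were planned but not run, because whole reads were not recovered from the RPM over their whole range.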
